A study of Homo sapiens with 6 samples.

Results

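RAB small GTPases are membrane-bound molecular switches that steer the traffic of vesicles between the compartments of a cell. The genes described here are those whose name is RAB followed by a number and at most 1 letter and whose listed transcripts include a protein-coding one. The rule found 63 of the 60612 genes in the table, and the name alone matched 64, since RAB1C is listed only as a processed pseudogene. Of the 63, 46 had a mean FPKM (read fragments per kilobase of transcript and sequencing depth) of at least 1 over all samples and entered the test across 12000 genes. The other 17 were too low to test.

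HCT116 is an established human colorectal cancer line, and the series asks how PLOD3, an enzyme of the endoplasmic reticulum that hydroxylates and glycosylates lysines of collagen, bears on that disease. RNA-seq after depletion of ribosomal RNA covered 3 samples treated with PLOD3 siRNA and 3 with the control siRNA si NC, all for 2 days. The labels do not name the siRNA sequences or say whether replicates came from separate cultures. The p-values therefore cover the spread among these 6 libraries, which may be a technical one, and in bulk RNA fewer cells with a transcript and less of it per cell cannot be told apart.

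A RAB protein is active when it holds GTP and inactive when it holds GDP. Exchange factors, many with a DENN domain, load GTP, and GTPase-activating proteins, most with a TBC domain, end the active state. Geranylgeranyl groups added with the help of RAB escort proteins fix the protein to a membrane, GDP dissociation inhibitors take it off again, and effectors such as tethers and motor adaptors bind only the active form. In epithelial cells RAB11 and RAB25 act in recycling endosomes, RAB5 in early endosomes, RAB7 in late endosomes, RAB1 and RAB2 between endoplasmic reticulum and Golgi, and RAB3, RAB27 and RAB37 in regulated secretion.

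The results turn on 2 sets of close relatives, RAB11 and RAB3, so a stretch of their coding sequence is shown. Each stretch is 60 bases long and starts at the codon that opens the conserved motif of the second switch region, where RAB proteins contact the phosphate of GTP and their regulators. The sequences were read 5′ to 3′ from GENCODE release 29 transcripts of GRCh38. They cover coding bases 193 to 252 of RAB11B and RAB11A and 196 to 255 of RAB25, a RAB11 relative found mainly in epithelia. Capitals mark the positions at which the 3 sequences differ.
RAB11B: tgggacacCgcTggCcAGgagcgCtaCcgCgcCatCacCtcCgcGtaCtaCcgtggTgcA
RAB11A: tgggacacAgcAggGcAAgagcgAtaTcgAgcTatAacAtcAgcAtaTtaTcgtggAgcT
RAB25: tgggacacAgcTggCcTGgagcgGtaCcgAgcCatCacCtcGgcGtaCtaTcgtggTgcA
Of the 60 positions 17 differed among the 3, and 16 of the 17 were the third base of a codon. RAB11A differed from RAB11B at 16 positions and RAB25 from RAB11B at 6. GC content of the stretch was 68.3% in RAB11B, 48.3% in RAB11A and 63.3% in RAB25.

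The same stretch, coding bases 226 to 285, is shown for the RAB3 genes, all 3 of which were lower in PLOD3 siRNA cells. Capitals again mark the positions that differ among the 3.
RAB3A: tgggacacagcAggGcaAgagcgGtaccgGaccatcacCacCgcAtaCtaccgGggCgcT
RAB3B: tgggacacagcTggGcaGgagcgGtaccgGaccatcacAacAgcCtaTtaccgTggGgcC
RAB3D: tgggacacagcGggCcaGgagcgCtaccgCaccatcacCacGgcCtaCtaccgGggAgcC
Here 12 positions differed and all 12 were the third base of a codon. GC content was 65.0% in RAB3A, 63.3% in RAB3B and 70.0% in RAB3D.

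The estimated counts summed to between 55416555 and 76802428 per sample, with about 4 units to a read pair. PLOD3 had 3.44, 3.40 and 4.05 FPKM in PLOD3 siRNA cells and 6.40, 7.16 and 6.22 FPKM in si NC cells. The groups did not overlap, and its level in PLOD3 siRNA cells was 55.1% of that in si NC cells (log2 fold change -0.85, SE 0.107, edgeR adjusted p = 0.0035). With 3 values on each side, a two-sided exact permutation test gave p = 0.1, and this design allows no smaller p. Of 10 epithelial markers 9 reached a mean of 1 FPKM, with a summed level of 593 to 673 FPKM in PLOD3 siRNA cells and 699 to 757 FPKM in si NC cells. Fibroblast markers summed to 1.52 to 1.93 FPKM in PLOD3 siRNA cells and 2.66 to 2.89 FPKM in si NC cells, with 1 of 9 reaching a mean of 1 FPKM. For leukocyte markers the sums were 1.87 to 1.91 FPKM in PLOD3 siRNA cells and 1.07 to 2.01 FPKM in si NC cells, with 1 of 8 at that level. Endothelial markers, 0 of 6 at that level, summed to 0.152 to 0.163 FPKM in PLOD3 siRNA cells and 0.110 to 0.315 FPKM in si NC cells. DCN, FAP and LUM, PTPRC, CD3E and MS4A1, and CDH5 had no reads. The part of the lower epithelial markers in the results was not tested.

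Of the 46 RAB genes tested 10, or 21.7%, were lower at an adjusted p under 0.05, against 19.3% of all genes tested, and 0 were higher, against 16.2% of all genes tested (edgeR's quasi-likelihood test, Benjamini-Hochberg adjusted over 12000 genes). The share of lower genes was thus close to the background in this fit. After GC correction 11 of the 46 were lower, where 14.5% of all genes were. The count of 0 higher became 2 after GC correction (RAB25 and RAB35) and 2 on log2(TPM + 1) (RAB5A and RAB9A). At an unadjusted p under 0.05 2 RAB genes were higher, RAB9A and RAB10, and 16 were lower. The share of all genes at that threshold was not computed, so these counts have no background and are not read further. DESeq2 called 1 higher, RAB9A, and 13 lower, and limma on log2(FPKM + 1) called 0 higher and 11 lower. Over all 12000 genes DESeq2 called 2355 higher and 2557 lower, and limma on that scale 1859 higher and 2196 lower. The median log2 fold change was -0.07 over the 46 RAB genes and 0.00 over all genes tested, and 26 RAB genes lay below 0 and 20 above. The sign of the RAB median depends on the scale, as it was 0.04 on log2(TPM + 1), where the median of all genes was 0.10. Without si NC replicate 1 it was 0.003 beside a median of 0.009 over all genes. After GC correction it was -0.17 beside 0.01 over all genes.

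The levels of the 10 lower genes in PLOD3 siRNA cells were between 51.6% and 72.3% of those in si NC cells. At least 1.5-fold lower were 4 of them, RAB3A, RAB17, RAB20 and RAB37, in a test where 9.17% of all genes were called with such a fall and 5.56% with as large a rise. The values of the groups did not overlap for 19 of the 46 RAB genes, or 41.3%, against 52.1% of all genes tested. PLOD3 siRNA cells were below in 15 of the 19, or 32.6% of those tested against 27.5% of all genes, and above in RAB10, RAB33B, RAB5A and RAB9A, or 8.70% against 24.6%.

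**Figure D1:**
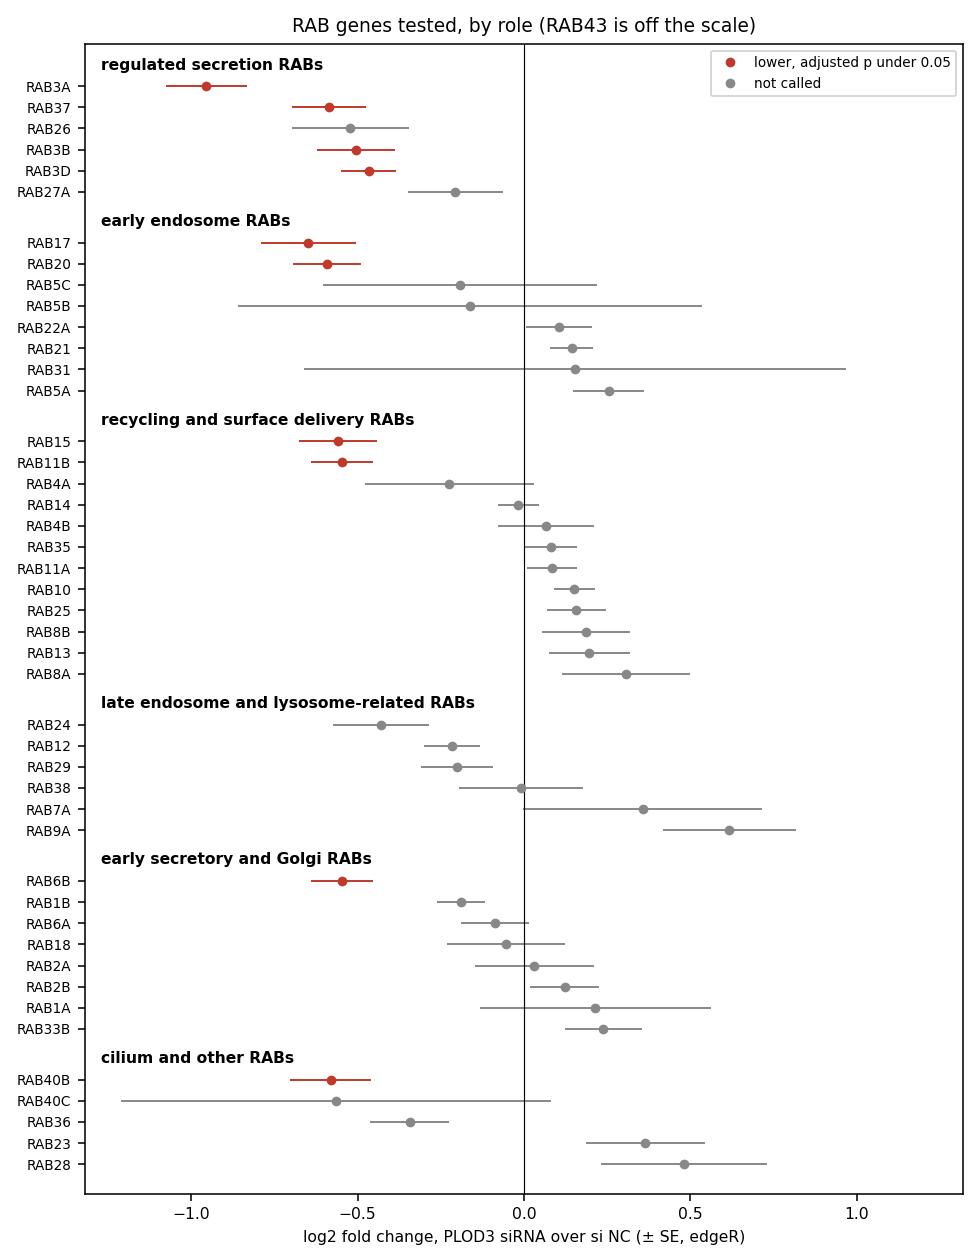
Log2 fold change of PLOD3 siRNA over si NC (x axis, points with ± SE derived from the F statistic of edgeR) for the RAB genes tested, grouped by role down the page, with RAB43 left out because it lies off the scale. Red points are the 10 genes lower at an adjusted p under 0.05, of which 4 lie among the 6 regulated secretion genes at the top, and no point to the right of 0 is called.

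Regulated secretion, the release of stored granules on a signal, was the role with the most lower members. Of its 8 RAB genes 6 were tested, 4 were lower (66.7%, against 19.3% of all genes) and 0 higher (against 16.2%), and the median log2 fold change was -0.51. All 6 lay below 0 in this fit and under each of the other scalings, filters and left-out samples tried. The roles were assigned with earlier results of these data known, and RAB3A, RAB3B and RAB3D among the lower genes are close relatives. The share of this role is therefore a description only.

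RAB3A (ENSG00000105649, chromosome 19, 18196784 to 18204042, minus strand), which acts at secretory vesicles before fusion with the plasma membrane, had the largest called fall of the family. It had 3.10, 2.90 and 2.95 FPKM in PLOD3 siRNA cells and 5.90, 6.37 and 5.18 FPKM in si NC cells. The 3 PLOD3 siRNA samples lay close together and well below the lowest si NC sample. Its mean was 2.99 ± 0.105 FPKM in PLOD3 siRNA cells and 5.82 ± 0.600 FPKM in si NC cells (SD, n = 3 each), which is a log2 change by -0.95 (SE 0.122, adjusted p = 0.00367 in edgeR). MPV17L2, which overlaps RAB3A on the opposite strand, had 12.6, 12.9 and 12.6 FPKM in PLOD3 siRNA cells and 10.9, 13.4 and 11.3 FPKM in si NC cells, and since no strand setting is given, its reads cannot be told apart from those of RAB3A where the genes overlap.

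RAB3D (ENSG00000105514, chromosome 19, 11322068 to 11346270, minus strand), known from granules of exocrine cells, had 4.54, 4.15 and 4.21 FPKM in PLOD3 siRNA cells and 5.81, 6.16 and 5.92 FPKM in si NC cells. The groups were apart, with the smallest fold change of the 10 genes at -0.47 (SE 0.0821, adjusted p = 0.0081). TMEM205 overlaps it on the same strand, with 8.19, 6.90 and 9.05 FPKM in PLOD3 siRNA cells and 7.87, 9.65 and 8.78 FPKM in si NC cells.

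RAB3B (ENSG00000169213, chromosome 1, 51907956 to 51990700, minus strand), a further vesicle RAB of secretory cells, had 4.58, 3.57 and 4.84 FPKM in PLOD3 siRNA cells and 6.60, 5.44 and 6.41 FPKM in si NC cells. The highest PLOD3 siRNA sample lay below the lowest si NC sample, though both groups were wide. The log2 fold change was -0.50 (SE 0.117, adjusted p = 0.019). It was the one call of the 10 that leaving out a sample ended, with an adjusted p of 0.0515 without si NC replicate 1 and 0.0624 without si NC replicate 3.

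Since FPKM is per length, the RAB3 genes can be added up. RAB3A, RAB3B and RAB3D together had 12.2, 10.6 and 12.0 FPKM in PLOD3 siRNA cells and 18.3, 18.0 and 17.5 FPKM in si NC cells. The sum was lower in each PLOD3 siRNA sample than in any si NC sample. RAB3C, the other RAB3 gene, had no reads in any sample.

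RAB37 (ENSG00000172794, chromosome 17, 74670578 to 74747335, plus strand), first known from mast cell granules, had 1.70, 1.75 and 2.01 FPKM in PLOD3 siRNA cells and 2.78, 2.89 and 2.55 FPKM in si NC cells. These values do not overlap, and the log2 fold change was -0.59 (SE 0.111, adjusted p = 0.0101). RAB26, which acts at secretory granules and synaptic vesicles, did not pass, at -0.52 (adjusted p = 0.0577), with 2.46, 2.05 and 2.11 FPKM in PLOD3 siRNA cells and 2.67, 3.82 and 3.04 FPKM in si NC cells. Without si NC replicate 1 its adjusted p was 0.0404.

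The RAB27 genes, which dock melanosomes, granules and exosome-bearing endosomes at the plasma membrane, were low and did not pass. RAB27A had 1.13, 1.12 and 1.34 FPKM in PLOD3 siRNA cells and 1.46, 1.53 and 1.18 FPKM in si NC cells, and the groups overlapped (log2 fold change -0.21, adjusted p = 0.296). RAB27B, below the level needed for the test, had 0.509, 0.310 and 0.440 FPKM in PLOD3 siRNA cells and 0.386, 0.408 and 0.523 FPKM in si NC cells, with no separation.

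**Figure D2:**
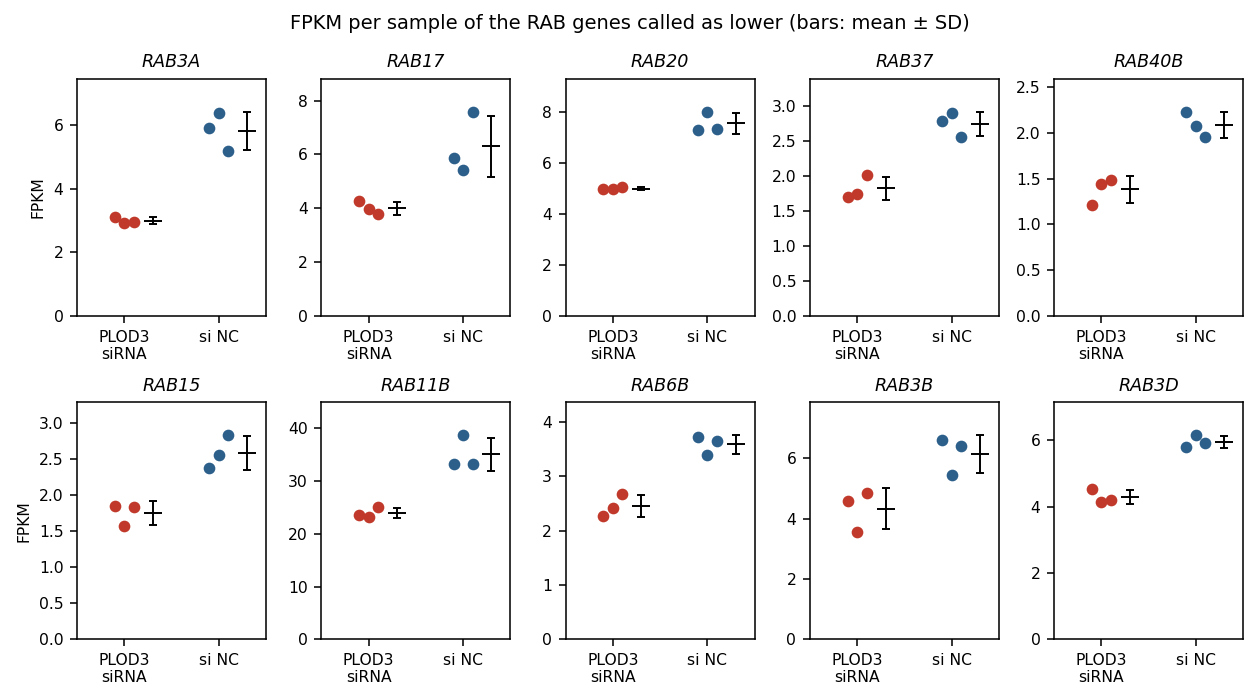
FPKM (y axis, from 0) of the 10 RAB genes called as lower, in the 3 PLOD3 siRNA samples (red, left of each panel) and the 3 si NC samples (blue, right); bars give the mean ± SD. In every panel the highest red point lies below the lowest blue point, with RAB3A at 2.90 to 3.10 FPKM in PLOD3 siRNA cells and 5.18 to 6.37 FPKM in si NC cells.

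In recycling and delivery to the cell surface, 2 of 12 genes were lower, RAB11B and RAB15, and 0 higher, which is 16.7% lower against 19.3% of all genes, and the median of the role was 0.08. RAB11B (ENSG00000185236, chromosome 19, 8389981 to 8404434, plus strand), a RAB of the recycling endosome, was by far the most abundant of the 10 lower genes. It had 23.5, 23.2 and 25.1 FPKM in PLOD3 siRNA cells and 33.2, 38.7 and 33.3 FPKM in si NC cells. The groups were well apart, with means of 23.9 ± 1.01 FPKM in PLOD3 siRNA cells and 35.1 ± 3.16 FPKM in si NC cells and a log2 fold change of -0.55 (SE 0.0923, adjusted p = 0.00722). RAB11B was 9th of the RAB genes by mean FPKM in PLOD3 siRNA cells and 4th in si NC cells. Its antisense partner RAB11B-AS1 averaged 0.823 FPKM over all samples.

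RAB11A, whose protein has nearly the same role, had 28.4, 29.6 and 27.3 FPKM in PLOD3 siRNA cells and 28.3, 25.4 and 27.2 FPKM in si NC cells. Its groups overlapped, with a log2 fold change of 0.08 (SE 0.0743, adjusted p = 0.409). RAB25, the epithelial relative, had 30.4, 30.6 and 29.4 FPKM in PLOD3 siRNA cells and 26.6, 29.5 and 25.4 FPKM in si NC cells. These values also overlapped, at 0.16 (SE 0.0883, adjusted p = 0.209). RAB11A thus made up 54.7%, 56.1% and 52.1% of the summed FPKM of RAB11A and RAB11B in PLOD3 siRNA cells and 46.0%, 39.6% and 44.98% in si NC cells. RAB11A was the more abundant of the pair in each PLOD3 siRNA sample and RAB11B in each si NC sample. These shares are of uncorrected FPKM, and after GC correction the log2 fold changes of the pair were close, at -0.19 for RAB11B and -0.22 for RAB11A. Over all 3 genes RAB11B fell to 29.01% of the sum in PLOD3 siRNA cells, against 39.3% in si NC cells.

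RAB15 (ENSG00000139998, chromosome 14, 64945814 to 64972935, minus strand), a RAB of early and recycling endosomes, had 1.85, 1.56 and 1.84 FPKM in PLOD3 siRNA cells and 2.37, 2.56 and 2.83 FPKM in si NC cells. The groups did not overlap (log2 fold change -0.56, SE 0.117, adjusted p = 0.0137). RAB15 did not pass after GC correction (adjusted p = 0.0671). CHURC1-FNTB, on the opposite strand, varied with no order between the groups, at 3.94, 0.279 and 5.69 FPKM in PLOD3 siRNA cells and 1.10, 3.44 and 0 FPKM in si NC cells.

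RAB10, which carries basolateral cargo and the glucose transporter GLUT4, was the second most abundant RAB gene, with 48.2, 46.3 and 45.6 FPKM in PLOD3 siRNA cells and 44.5, 40.8 and 41.4 FPKM in si NC cells. The PLOD3 siRNA samples were all above, by a small log2 fold change of 0.15 that did not pass (SE 0.0616, adjusted p = 0.0993). RAB14, of the same role, was at 21.1 ± 1.37 FPKM in PLOD3 siRNA cells and 21.4 ± 1.00 FPKM in si NC cells. The RAB8 pair, which sends vesicles to the surface and into cilia, summed to 17.9, 16.9 and 18.9 FPKM in PLOD3 siRNA cells and 16.4, 16.4 and 11.7 FPKM in si NC cells, and neither RAB8A nor RAB8B passed. RAB13, of tight junction traffic, was at 27.1 ± 1.80 FPKM in PLOD3 siRNA cells and 23.8 ± 3.05 FPKM in si NC cells (adjusted p = 0.247).

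Among the RAB genes of early endosomes, 2 of 8 were lower, RAB17 and RAB20, or 25% against 19.3% of all genes, and the median was -0.03. RAB17 (ENSG00000124839, chromosome 2, 237574322 to 237591071, minus strand), an epithelial RAB of apical recycling and transcytosis, had 4.26, 3.96 and 3.77 FPKM in PLOD3 siRNA cells and 5.87, 5.42 and 7.59 FPKM in si NC cells. All 3 PLOD3 siRNA samples were below, and si NC replicate 3 was high in its group (log2 fold change -0.65, SE 0.143, adjusted p = 0.0162). RAB17 did not pass after GC correction (adjusted p = 0.0941). AC104667, on the opposite strand, averaged 0.915 FPKM over all samples. RAB20 (ENSG00000139832, chromosome 13, 110523066 to 110561722, minus strand), known from endosome and phagosome maturation, had 4.98, 4.97 and 5.06 FPKM in PLOD3 siRNA cells and 7.32, 8.03 and 7.34 FPKM in si NC cells. The SD in PLOD3 siRNA cells was 0.0512 FPKM around a mean of 5.00 FPKM, the tightest of the 10 genes, and the log2 fold change was -0.59 (SE 0.103, adjusted p = 0.0078).

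The RAB5 genes themselves, which drive fusion of early endosomes, were not called. RAB5A had 11.0, 10.5 and 11.3 FPKM in PLOD3 siRNA cells and 8.22, 9.01 and 10.4 FPKM in si NC cells. Its PLOD3 siRNA samples were just above the highest si NC sample, and the log2 fold change was 0.25 (SE 0.106, adjusted p = 0.106). RAB5C, next in abundance after RAB1B and RAB10, had 23.7, 22.9 and 48.4 FPKM in PLOD3 siRNA cells and 57.0, 29.4 and 22.7 FPKM in si NC cells. PLOD3 siRNA replicate 3 and si NC replicate 1 were high and the other 4 samples low, and the log2 fold change of -0.19 had an SE of 0.411 (adjusted p = 0.745).

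None of the 6 tested RAB genes of late endosomes and lysosome-related organelles was called, against 35.5% of all genes in either direction, and their median was -0.11. RAB7A, the main RAB of late endosomes and of fusion with lysosomes, had 39.6, 17.2 and 40.7 FPKM in PLOD3 siRNA cells and 36.2, 20.4 and 19.6 FPKM in si NC cells. High and low samples occurred in both groups (log2 fold change 0.36, SE 0.36, adjusted p = 0.473). RAB9A, which returns receptors from late endosomes to the Golgi, had the largest positive fold change of the family, with 5.98, 6.31 and 9.71 FPKM in PLOD3 siRNA cells and 5.54, 4.44 and 4.40 FPKM in si NC cells. PLOD3 siRNA replicate 3 stood above the rest, and the log2 fold change of 0.62 did not pass (SE 0.2, adjusted p = 0.053). It passed with DESeq2 (adjusted p = 0.0122), on log2(TPM + 1) (0.0376) and without PLOD3 siRNA replicate 1 (0.0482). RAB24, linked to autophagy, and RAB12, of recycling endosome to lysosome transport, were below in all 3 PLOD3 siRNA samples but missed the threshold, at -0.43 (adjusted p = 0.058) and -0.22 (adjusted p = 0.0894). RAB24 passed with DESeq2 and with limma on log2(FPKM + 1) and log2(FPKM + 0.1), and RAB12 with a mean FPKM of at least 5 and after GC correction.

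In the early secretory pathway and Golgi, 1 of 9 tested genes was lower, or 11.1% against 19.3% of all genes, and the median was -0.05. The lower gene was RAB6B (ENSG00000154917, chromosome 3, 133824235 to 133895882, minus strand), a RAB of transport within and out of the Golgi that is most abundant in neurons. It had 2.27, 2.41 and 2.67 FPKM in PLOD3 siRNA cells and 3.72, 3.40 and 3.66 FPKM in si NC cells. The groups were apart (log2 fold change -0.55, SE 0.0928, adjusted p = 0.00733). Its abundant relative RAB6A was at 20.1 ± 1.89 FPKM in PLOD3 siRNA cells and 21.5 ± 2.62 FPKM in si NC cells (adjusted p = 0.535). RAB6B made up 10.6% of the summed RAB6 FPKM in PLOD3 siRNA cells and 14.1% in si NC cells. These shares are of uncorrected FPKM. After GC correction RAB6A was lower as well, at -0.29 (edgeR adjusted p = 0.0346), beside -0.51 for RAB6B (adjusted p = 0.0104). RAB6C and RAB6D, retrogene copies of RAB6A whose reads the counting may have split with it, were under the level needed for the test.

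RAB1B, which acts between endoplasmic reticulum and Golgi, was the most abundant RAB gene, with 76.2, 72.7 and 75.6 FPKM in PLOD3 siRNA cells and 82.5, 91.0 and 83.1 FPKM in si NC cells. All PLOD3 siRNA samples lay below all si NC samples, and the log2 fold change was -0.19 (SE 0.0723, adjusted p = 0.085). Its partner RAB1A varied from sample to sample, with 42.1, 20.1 and 30.1 FPKM in PLOD3 siRNA cells and 39.2, 17.2 and 23.5 FPKM in si NC cells. Of the other roles, 1 of 5 tested genes was lower, or 20%, close to the 19.3% of all genes. This was RAB40B (ENSG00000141542, chromosome 17, 82654973 to 82698698, minus strand), a RAB with a SOCS box that recruits a ubiquitin ligase. It had 1.22, 1.44 and 1.49 FPKM in PLOD3 siRNA cells and 2.23, 2.08 and 1.95 FPKM in si NC cells. No values overlapped, and the log2 fold change was -0.58 (SE 0.122, adjusted p = 0.0139). RAB36 missed the threshold at -0.34 (adjusted p = 0.0636), and RAB23 and RAB28, with roles in primary and photoreceptor cilia, were at 0.36 (adjusted p = 0.158) and 0.48 (adjusted p = 0.176).

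Summed over all 63 genes, RAB transcripts gave 559.9, 517.5 and 590.4 FPKM in PLOD3 siRNA cells and 627.3, 568.8 and 526.5 FPKM in si NC cells. These sums overlapped, at 555.9 ± 36.6 FPKM in PLOD3 siRNA cells and 574.2 ± 50.7 FPKM in si NC cells. RAB1B alone held 14.2% of the sum, the 5 most abundant genes 38.4% and the 10 most abundant 61.7%. The next places after RAB1B and RAB10 went to RAB5C, RAB11B, RAB7A, RAB1A, RAB25 and RAB11A, which lay between 27.7 and 34.0 FPKM over all samples. Their order is within the spread of RAB5C, RAB7A and RAB1A. The 17 genes that were not tested reached at most 0.545 FPKM, in RAB30, while the lowest tested gene, RAB27A, had 1.29 FPKM.

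For 7 RAB genes the samples of 1 group differed by at least 2-fold, which is 15.2% of the 46 against 10.3% of all genes tested. They were RAB43, RAB31, RAB5B, RAB40C, RAB5C, RAB7A and RAB1A. Their SE of log2 fold change ran from 0.346 to 1.44, against 0.0616 to 0.253 for the other 39, and none was called. RAB31, a RAB of Golgi to endosome transport, had 1.43, 9.21 and 10.4 FPKM in PLOD3 siRNA cells and 3.55, 12.2 and 3.18 FPKM in si NC cells. RAB5B had 10.9, 10.6 and 4.90 FPKM in PLOD3 siRNA cells and 14.1, 13.8 and 1.95 FPKM in si NC cells. In both genes high and low samples occurred within each group.

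RAB43, of endoplasmic reticulum and Golgi transport, had the most extreme log2 fold change of the family, -4.47 with an SE of 1.44, and did not pass (adjusted p = 0.0516). It had 0.0447, 0.0370 and 0.325 FPKM in PLOD3 siRNA cells and 0.112, 4.19 and 4.66 FPKM in si NC cells, so si NC replicate 1 lay within the PLOD3 siRNA range. Its mean was 0.136 FPKM in PLOD3 siRNA cells and 2.99 FPKM in si NC cells. It thus met the mean of at least 1 FPKM needed for the test only through si NC replicates 2 and 3. ISY1-RAB43, a readthrough gene on the same strand that contains RAB43, had 7.79, 3.44 and 0.826 FPKM in PLOD3 siRNA cells and 6.62, 0 and 0 FPKM in si NC cells. Samples high in the one were low in the other, and the pair summed to 7.84, 3.48 and 1.15 FPKM in PLOD3 siRNA cells and 6.73, 4.19 and 4.66 FPKM in si NC cells, with overlap. A processed pseudogene, RAB43P1, averaged 1.56 FPKM in PLOD3 siRNA cells and 2.77 FPKM in si NC cells. The value of RAB43 is uncertain for these reasons, and it passed with DESeq2, with counts divided by 4, without PLOD3 siRNA replicate 3 and without si NC replicate 1.

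**Figure D3:**
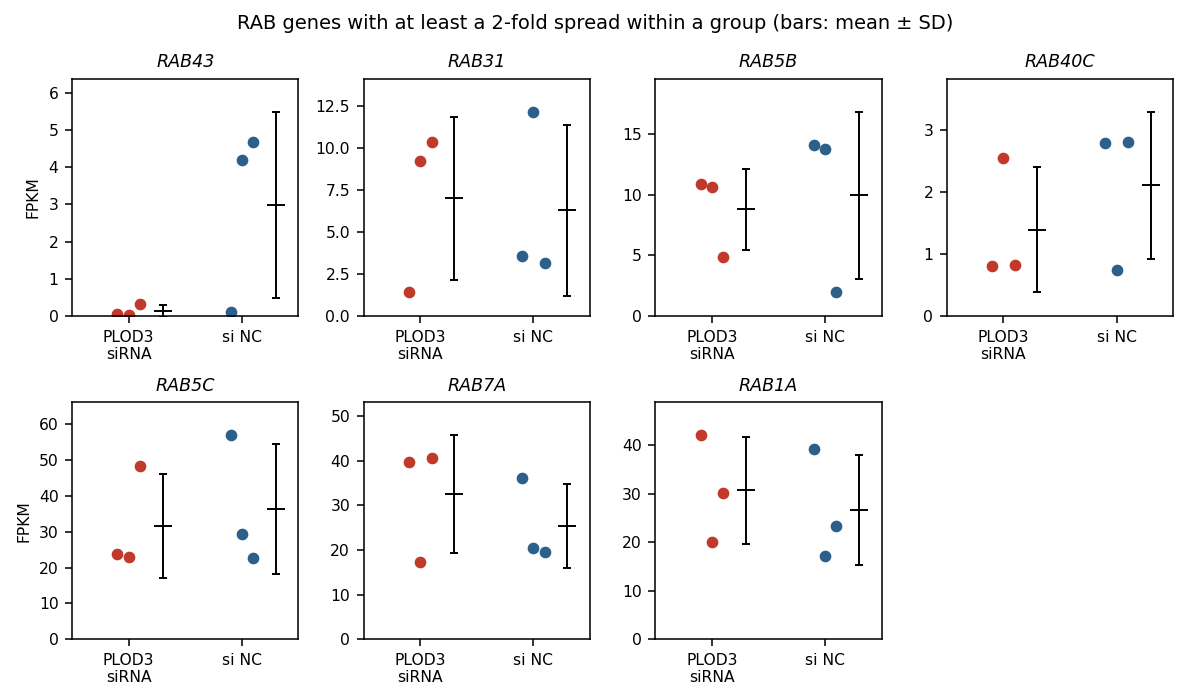
FPKM (y axis, from 0) of the 7 RAB genes whose samples of 1 group differed by at least 2-fold, in the 3 PLOD3 siRNA samples (red, left of each panel) and the 3 si NC samples (blue, right); bars give the mean ± SD. Red and blue points overlap in every panel, and in RAB43 the si NC samples run from 0.112 to 4.66 FPKM.

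The GC content of the transcript moved with the fold change, in RAB genes as in all genes. Across the 46 RAB genes Spearman's rho between log2 fold change and transcript GC content was -0.61 and Pearson's r was -0.49, and across 11968 genes rho was -0.50. These are descriptions across genes of the same 6 libraries, which are not independent replicates. GC content at the third base of codons gave a rho of -0.70 over the 46. The 10 lower genes had a median transcript GC content of 56.1%, from 44.8% in RAB3B to 63.5% in RAB11B, and the other 36 had 43.4%. Of 20 RAB genes under 45% GC 1 was lower, of 10 genes between 45% and 55% 3 were lower, and of 16 genes at 55% or more 6 were lower, or 37.5%. In the same GC classes 4.32%, 18.1% and 37.4% of all genes were lower, and 29.9%, 14.0% and 3.35% were higher. The RAB genes under 45% GC had a median log2 fold change of 0.13 against 0.24 for all genes of that class, and those at 55% or more had -0.53 against -0.29.

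After a correction for the trend of counts with GC content within each sample, 11 RAB genes were lower and 2 higher, with 14.5% of all genes lower and 13.3% higher. Of the 10 genes above 8 stayed lower, RAB17 (log2 fold change -0.42) and RAB15 (-0.34) no longer passed, and RAB12, RAB14 and RAB6A passed as lower. RAB14 is uncertain, since GSN overlaps it on the opposite strand and no strand setting is given. GSN had 4.76, 4.51 and 4.73 FPKM in PLOD3 siRNA cells and 9.66, 9.76 and 9.13 FPKM in si NC cells. RAB25 (0.36, adjusted p = 0.015) and RAB35 (0.32, adjusted p = 0.0158), an endocytic recycling RAB, passed as higher. RAB11B kept a corrected log2 fold change of -0.19 (adjusted p = 0.0492), against -0.55 without the correction, and RAB11A moved to -0.22 (adjusted p = 0.0659). RAB1B changed sign, with 0.12 after the correction (adjusted p = 0.101). The RAB3 genes kept their calls, at -0.67 for RAB3A (adjusted p = 0.00783), -0.62 for RAB3B (adjusted p = 0.0119) and -0.37 for RAB3D (adjusted p = 0.0139), and regulated secretion kept 4 lower genes of 6 with a median of -0.46. The corrected medians of the other roles also lay below 0, at -0.25 in early secretory and Golgi and -0.15 in early endosome genes. They were -0.10 in recycling and surface delivery, -0.10 in late endosomes and -0.13 in cilium and other roles. The part of GC content in the uncorrected fold changes was not tested beyond this correction.

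**Figure D4:**
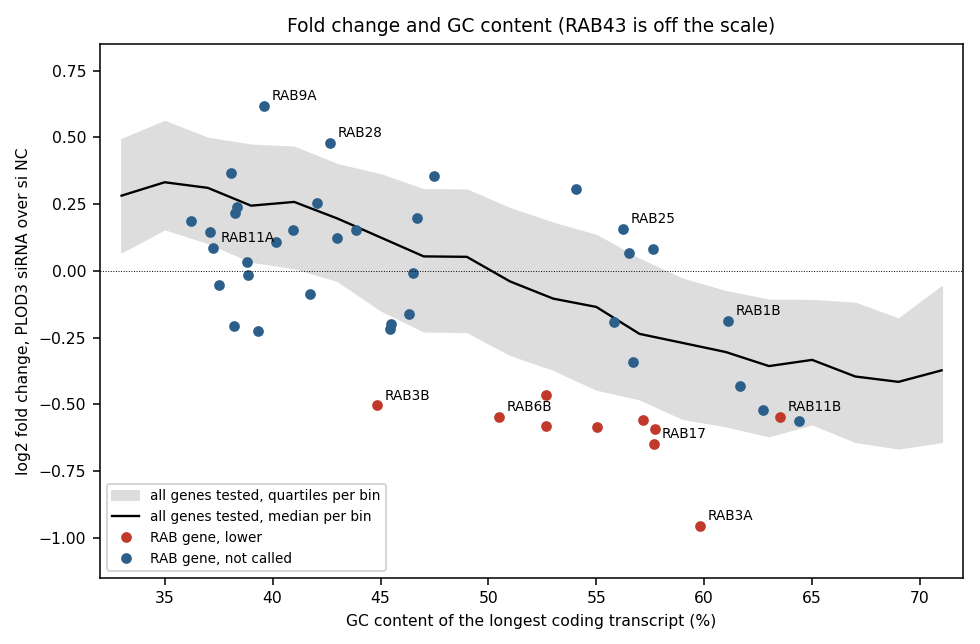
Log2 fold change of PLOD3 siRNA over si NC (y axis) against the GC content of the longest coding transcript (x axis, percent) for the tested RAB genes (points, red where lower, blue where not called; RAB43 is off the scale), over the median and quartiles of all genes tested per step of GC content (line and band). The line of all genes runs downwards from left to right, and RAB11B lies at 63.5% GC, RAB11A at 37.2% and RAB3B, with a log2 fold change of -0.50, at 44.8%.

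Promoter sequences, from 250 bases before to 50 after the start of the gene, were in RefSeq (GRCh38.p14) for 50 of the 63 genes, for 36 of the 46 tested and for 7 of the 10 lower ones. RAB1A, RAB2A, RAB12, RAB15, RAB20, RAB26, RAB33B, RAB36, RAB37 and RAB38 were the tested genes without a match. The promoters of RAB3A and RAB3B are shown as those of 2 relatives that were lower together while their transcripts lie at 59.8% and 44.8% GC. Capitals mark GGGCGG on either strand, the core of the GC box bound by Sp factors, so that CCGCCC in capitals is the same motif on the other strand. The first is chr19:18203993-18204292 and the second chr1:51990651-51990950, both on the minus strand.
RAB3A: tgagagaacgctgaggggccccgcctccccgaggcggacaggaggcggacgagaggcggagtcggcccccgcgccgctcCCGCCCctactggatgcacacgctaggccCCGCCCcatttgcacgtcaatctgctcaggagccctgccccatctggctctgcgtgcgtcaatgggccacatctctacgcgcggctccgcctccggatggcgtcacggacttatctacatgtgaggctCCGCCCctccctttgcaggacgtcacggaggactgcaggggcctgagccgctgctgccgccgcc
RAB3B: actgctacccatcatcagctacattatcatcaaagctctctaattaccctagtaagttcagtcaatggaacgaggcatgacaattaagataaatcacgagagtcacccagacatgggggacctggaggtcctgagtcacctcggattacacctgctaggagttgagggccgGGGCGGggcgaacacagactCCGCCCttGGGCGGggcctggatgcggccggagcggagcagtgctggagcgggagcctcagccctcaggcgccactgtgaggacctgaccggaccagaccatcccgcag
Each holds 3 GGGCGG, and their GC content is 69.7% and 58.7%. On both strands, GGGCGG occurred in 32 of the 36 promoters of tested RAB genes, or 88.9%, and in 44.95% of 35116 promoters in the table, and in 6 of the 7 lower genes. CACGTG occurred in 6 of 36, or 16.7%, against 7.26% of all promoters, and CCAAT in 10 of 36, or 27.8%, against 34.6%. TATAAA occurred in 0 of 36 and in 11.5% of all promoters. The sets are unlike, since the 36 are promoters of genes with a mean of at least 1 FPKM, each gene once. The 35116 were limited neither by level nor to a single promoter per gene. These shares therefore cannot show a trait particular to RAB genes, and a match is a description of the letters in this window.

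The enzymes that put RAB proteins on membranes and take them off moved in both directions. Of 8 genes of prenylation and of GDP dissociation inhibitors 3 were higher (37.5%, against 16.2% of all genes) and 2 lower (25%, against 19.3%), with a median of 0.19. After GC correction 1 was higher and 0 lower, with 13.3% of all genes higher and 14.5% lower. CHML, a RAB escort protein, had 2.47, 2.16 and 2.58 FPKM in PLOD3 siRNA cells and 1.60, 1.02 and 1.301 FPKM in si NC cells, a log2 fold change of 0.89 (SE 0.161, adjusted p = 0.00875). Every PLOD3 siRNA sample was above every si NC sample, and the call held after GC correction (0.58, adjusted p = 0.0141). RABGGTB, a subunit of RAB geranylgeranyl transferase, was at 18.9 ± 0.802 FPKM in PLOD3 siRNA cells and 13.5 ± 2.04 FPKM in si NC cells (0.49, adjusted p = 0.0153). RABAC1, a Golgi protein that binds prenylated RABs, was at 5.59 ± 0.435 FPKM in PLOD3 siRNA cells and 8.22 ± 0.193 FPKM in si NC cells (-0.55, adjusted p = 0.00935). GDI2, a GDP dissociation inhibitor, was at 42.2 ± 3.41 FPKM in PLOD3 siRNA cells and 33.2 ± 1.298 FPKM in si NC cells (0.36, adjusted p = 0.0217). RABGGTB, RABAC1 and GDI2 no longer passed after GC correction. Among the fits that left out a sample, GDI2 passed only in that without PLOD3 siRNA replicate 3.

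Of 31 tested exchange factors 2 were higher (6.5%, against 16.2% of all genes) and 9 lower (29%, against 19.3%), with a median of -0.17. After GC correction 0 were higher and 2 lower, with 13.3% of all genes higher and 14.5% lower. SBF1, a myotubularin-related protein with a DENN domain, fell by 0.53 on the log2 scale (adjusted p = 0.00524) and DENND1A, an exchange factor of RAB35, likewise by 0.53 (adjusted p = 0.0133), and neither passed after the correction. MON1B, part of the exchange complex of RAB7, was at 3.45 ± 0.264 FPKM in PLOD3 siRNA cells and 4.57 ± 0.133 FPKM in si NC cells (-0.40, adjusted p = 0.0103). DENND5B was at 2.96 ± 0.410 FPKM in PLOD3 siRNA cells and 4.56 ± 0.541 FPKM in si NC cells (-0.62, adjusted p = 0.0103). MON1B and DENND5B are the 2 that passed after GC correction.

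Of the 5 lists of regulators and effectors, GTPase-activating proteins had the largest share of lower genes, with 12 of 34 lower (35.3%, against 19.3% of all genes), 4 higher (11.8%, against 16.2%) and a median of -0.25. TBC1D16 had 4.32, 3.51 and 4.03 FPKM in PLOD3 siRNA cells and 6.71, 6.79 and 6.86 FPKM in si NC cells (log2 fold change -0.78, SE 0.0793, adjusted p = 0.00255). Its groups were far apart relative to the spread within them. TBC1D17, which acts on RAB8, fell by 0.75 on the log2 scale (adjusted p = 0.00444), TBC1D22A by 0.63 (adjusted p = 0.00508) and TBC1D10B by 0.50 (adjusted p = 0.00414). After GC correction 10 were lower and 1 higher, with 14.5% and 13.3% of all genes, and of the 4 named TBC1D10B no longer passed. The 10 are not all among the 12, since TBC1D13, GRTP1, TBC1D14 and TBC1D25 did not pass either. EVI5, TBC1D4 and RABGAP1, not called before the correction, passed as lower after it.

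Among 54 tested effectors 7 were higher (13.0%, against 16.2% of all genes) and 14 lower (25.9%, against 19.3%), with a median of -0.02. After GC correction 4 were higher and 7 lower, with 13.3% of all genes higher and 14.5% lower. KIF20A, a mitotic kinesin that binds RAB6, had 36.5, 35.2 and 32.9 FPKM in PLOD3 siRNA cells and 23.8, 23.6 and 22.4 FPKM in si NC cells (log2 fold change 0.59, SE 0.0737, adjusted p = 0.00353). BICD2, which links RAB6 vesicles to dynein, went the other way, with 6.77, 5.66 and 6.38 FPKM in PLOD3 siRNA cells and 9.94, 9.01 and 9.34 FPKM in si NC cells (-0.58, adjusted p = 0.00353). Both RAB6 effectors kept their call after GC correction and without each sample in turn. RILPL2, which binds RAB8 and RAB10, fell by 0.51 on the log2 scale (adjusted p = 0.00717) and PLEKHM2, which couples lysosomes to kinesin, by 0.62 (adjusted p = 0.00768), the second of them not after GC correction.

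Of 13 genes of the HOPS and CORVET tethers and of retromer 2 were lower and 0 higher, with a median of -0.17. These are 15.4% and 0% of the list, against 19.3% and 16.2% of all genes. At an unadjusted p under 0.05 VPS35 and VPS11 also lay above 0 and VPS33B below it, at -0.87 (adjusted p = 0.102). VPS26B fell by 0.29 (adjusted p = 0.03) and VPS16 by 0.31 (adjusted p = 0.0302) on the log2 scale, and each passed in only 1 of the 6 fits without a sample and not after GC correction. VPS35 was at 0.27 (adjusted p = 0.0578) and VPS11 at 0.25 (adjusted p = 0.0609). VPS11 passed as higher with DESeq2, on log2(TPM + 1) and after GC correction (0.37, adjusted p = 0.0139). After GC correction the list thus had 1 gene higher, VPS11, and 1 lower, VPS41 (-0.23, adjusted p = 0.0317). Of all genes 13.3% were higher and 14.5% lower in that fit.

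**Figure D5:**
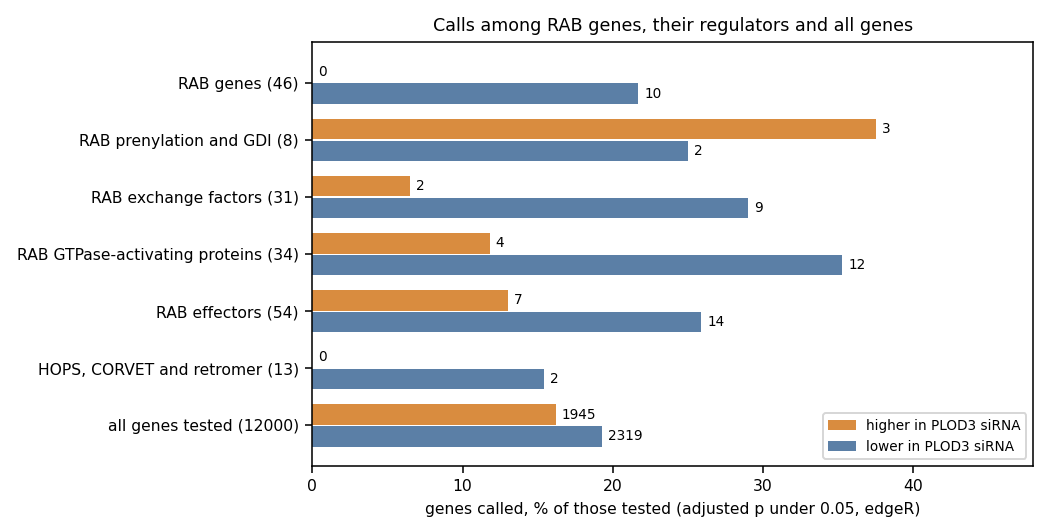
Genes called as higher (orange) or lower (blue) in PLOD3 siRNA cells, as a percent of the genes tested in each list (x axis; number tested in parentheses, number called beside each bar). RAB genes have no orange bar, GTPase-activating proteins have the longest blue bar with 12 of 34, and all genes tested stand at 16.2% higher and 19.3% lower.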

How the data were processed

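RNA-seq values of 3 PLOD3 siRNA and 3 si NC samples of HCT116 cells came from 1 deposited table of 60612 genes. Per the file headers it holds FPKM per gene and sample, deposited by the authors with no scaling between samples beyond FPKM itself, and 0.0001 stands for no reads. Beside each FPKM the authors deposited an estimated count, a whole number that is not normalized. Among the tools used, the submitters' processing notes list StringTie 1.3.4d, HISAT2 2.0.4 and cutadapt 1.9, with no settings. No build, annotation release, strand setting or method of counting is given in the sources used here. All 63 RAB genes overlapped the gene of the same identifier in GENCODE on GRCh38, so coordinates were read as GRCh38. Of the 63, 44 overlap another gene of the deposited data, on either strand, and reads in the shared stretch may not be told apart. Of the 12 value columns 0 were left unmapped. On average 1490 genes of a sample had a count of 4, 558 a count of 3 and 312 a count of 5, so about 4 units stand for a read pair and the counts overstate the reads. The number of read pairs behind each value is thus known only roughly, and no counting interval is given.

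The test kept 12000 genes, those averaging 1 FPKM or more across the samples. Their counts were scaled by TMM and compared with edgeR 4.0.16 in R 4.3.3 by a two-sided quasi-likelihood test with no covariate, p-values being adjusted over all genes tested after Benjamini and Hochberg with a threshold of 0.05. Levels are FPKM with SD and n = 3, and fold changes are PLOD3 siRNA over si NC. The edgeR test reports no SE, so each SE is the absolute log2 fold change divided by the square root of its F statistic. Alternatives were DESeq2 1.42.0, limma 3.58.1 on log2(FPKM + 1), log2(FPKM + 0.1) and log2(TPM + 1), other size factors, other filters, counts divided by 4, a GC correction (a loess trend per sample, span 0.5, on the GC content of the longest coding transcript), the replicate number as a block and leaving out each sample. The edgeR fit and the GC correction were tested on simulated data.

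The RAB genes, their roles and the lists of regulators, effectors and markers were chosen with earlier results of these data known, and the role lists leave out RAB6D. Values per sample are given for the called RAB genes, the 5 most abundant ones and RAB5A, RAB7A, RAB11A, RAB25 and RAB27B, and each pathway list has the 4 genes of smallest p; other genes were named after their values were seen.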

Additional observations from a re-analysis of the deposited data

How the results depend on the processing

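No result changed direction while called under any alternative. The counts of genes lower and higher in PLOD3 siRNA cells stayed within 1.5 times of their main values of 10 and 0 RAB genes, and 2319 and 1945 of all genes, except in these fits. DESeq2 called 1 RAB gene higher. With a mean FPKM of at least 5, 1354 genes were lower and 1192 higher, since fewer were tested. On log2(TPM + 1) 2 RAB genes were higher, RAB5A and RAB9A, and over all genes 1461 were lower and 2470 higher. The GC correction called 2 RAB genes higher, and with gene length as well 1. Leaving out each sample gave 9 to 11 RAB genes lower and 0 to 1 higher, and over all genes 1509 to 2011 lower and 1083 to 1651 higher. The fewest were without PLOD3 siRNA replicate 1 and without si NC replicate 3. RAB15 had its largest adjusted p of 0.0499 in these fits.

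Deviations from the group means of same-numbered samples correlated at 0.0486, -0.0107 and -0.0230, and those of differently numbered samples at -0.0330 to 0.0501. The labels give a shared number and no more, and whether same-numbered samples had a culture or run in common was not tested. With the replicate number as a block 10 RAB genes were lower and 0 higher, and over all genes 1834 were lower and 1471 higher. Block and GC correction together gave 4 RAB genes lower, RAB3A, RAB3B, RAB3D and RAB6B, and 1 higher, RAB25, and over all genes 1227 lower and 1070 higher. The cause was not tested. Not every sample correlated best with its own number. The lowest count in a sample was 13 among tested RAB genes, in RAB43, and 340 among the called ones, and the 17 untested ones give levels only.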

Other observations

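Some partners of the RAB genes described above, chosen after their values were seen, also differed. Of the RAB5 effectors EEA1, a tether of early endosomes, had 2.13, 1.56 and 2.16 FPKM in PLOD3 siRNA cells and 1.36, 0.763 and 1.10 FPKM in si NC cells (log2 fold change 0.87, edgeR adjusted p = 0.0232, 0.0522 after GC correction). RABEP1, which joins RAB5 to its exchange factor, was at 13.1 ± 0.751 FPKM in PLOD3 siRNA cells and 9.93 ± 0.877 FPKM in si NC cells (0.40, adjusted p = 0.0121). APPL2, which marks a class of early endosomes, was lower at 3.37 ± 0.265 FPKM in PLOD3 siRNA cells and 4.73 ± 0.295 FPKM in si NC cells (-0.48, adjusted p = 0.0115). With a sample left out, EEA1 passed in 3 of 6 fits, APPL2 in 5, all but that without si NC replicate 3, and RABEP1 in all 6. EEA1 did not pass without PLOD3 siRNA replicate 1, PLOD3 siRNA replicate 3 or si NC replicate 3. RABEP2 and VPS45, also on the effector list, were called in the main fit as well. RABEP2 did not pass after GC correction, and VPS45 passed in 2 of the 6 fits without a sample.

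Of the RAB11 effectors RAB11FIP1 was at 5.46 ± 0.777 FPKM in PLOD3 siRNA cells and 7.32 ± 0.220 FPKM in si NC cells (-0.42, adjusted p = 0.0184), and RAB11FIP4 at 1.48 ± 0.175 FPKM in PLOD3 siRNA cells and 2.24 ± 0.232 FPKM in si NC cells (-0.60, adjusted p = 0.012). Both link recycling endosomes to motors or tethers and passed after GC correction, and RAB11FIP1 did not pass without si NC replicate 3. RAB11FIP4 did not pass when the GC correction was joined by gene length or by the replicate block. RAB11FIP3, of the same group, was at 1.86 ± 0.350 FPKM in PLOD3 siRNA cells and 2.74 ± 0.183 FPKM in si NC cells (-0.55, adjusted p = 0.0281), and did not pass after GC correction (adjusted p = 0.361) or without si NC replicate 2 or 3. RAB3GAP2, the noncatalytic subunit of the GTPase-activating protein of RAB3, was higher at 4.62 ± 0.305 FPKM in PLOD3 siRNA cells and 3.20 ± 0.338 FPKM in si NC cells (0.53, adjusted p = 0.00638, 0.0186 after GC correction), and passed without each sample in turn. RAB3GAP1, the catalytic subunit, had 11.0, 8.55 and 10.3 FPKM in PLOD3 siRNA cells and 9.20, 7.82 and 11.6 FPKM in si NC cells (adjusted p = 0.771).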
